A study of Mus musculus with 11 samples.

Results

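The genes described here encode the subunits of respiratory chain complexes II, III and IV and of complex V, the ATP synthase, that are made from nuclear DNA. They were taken from the 36666 genes of the deposited table by the symbol patterns of the Sdh, Uqcr, Cyc1, Cox and Atp5 families, which gave 43 genes, 4 of complex II, 9 of complex III, 15 of complex IV and 15 of complex V. Poly(A)+ RNA of the cerebrum of 11 male mice of the strain C57/Bl6 aged 1 year was sequenced. Of these, 7 were Polg mutator mice (D257A/D257A), which are homozygous in every cell for a change in the proofreading domain of the mitochondrial DNA polymerase, and 4 were controls. The controls were 3 WT/WT mice (mice 205, 239 and 246) and 1 WT/D257A mouse (mouse 237), which carries 1 copy of the same allele. The comparison asks whether the mRNAs of these subunits differ between mutator and control brains. Each library came from 1 mouse, and no batch was given per mouse. The change in Polg is a single codon, so the gene counts do not check the genotypes.

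Complexes III and IV pass electrons from ubiquinol through cytochrome c to oxygen and pump protons out of the mitochondrial matrix, while complex II feeds electrons from succinate into the chain without pumping. Complex V lets the protons back in and uses their flow to make ATP, on which neurons depend heavily. Mitochondrial DNA encodes a few central subunits of complexes III, IV and V and none of complex II, and the nucleus encodes all the others, which are imported as proteins.

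Library totals over all genes ran from 28249345 to 121182250 counts, and values are given as CPM, the counts of a gene scaled to a common library total with edgeR's TMM factors. Errors written with ± are SDs over the 4 controls or the 7 mutators unless marked SE, and a nominal p is one before adjustment. Markers of the tissue were present, with 6 neuronal mRNAs summing to between 5223 and 5724 CPM per mouse. Control 246, the library with the fewest counts, stood apart from the other 10 mice on the main axis of variation left after the genotype (a surrogate variable, -0.89 against values from -0.198 to 0.232). Mutator 248 had 91219204 gene counts although only 30449029 aligned reads are listed for it in the deposited read totals, 2.996 counts per read against 0.744 to 0.775 in the other mice. The main values are therefore also given without each of these mice.

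The 43 genes can be told apart from each other only where their sequences differ. The subunit c of complex V, of which several copies form the rotating ring in the membrane, is the clearest case, since Atp5g1, Atp5g2 and Atp5g3 encode the same mature protein from separate genes. Their last 75 codons are shown because reads from this stretch can be assigned to a gene only by the bases that differ. They were taken from the annotated transcripts of mm9, for Atp5g1 on chromosome 11 (chr11:95930166-95936984, minus strand), Atp5g2 on chromosome 15 (chr15:102493299-102501478, minus strand) and Atp5g3 on chromosome 2 (chr2:73746504-73749383, minus strand). Capitals mark the bases at which the 3 genes are not all alike.
Atp5g1: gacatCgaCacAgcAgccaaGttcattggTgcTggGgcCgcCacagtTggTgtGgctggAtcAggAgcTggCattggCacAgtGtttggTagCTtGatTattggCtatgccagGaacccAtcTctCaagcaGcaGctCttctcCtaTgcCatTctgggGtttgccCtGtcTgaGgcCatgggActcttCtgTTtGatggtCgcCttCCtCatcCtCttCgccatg
Atp5g2: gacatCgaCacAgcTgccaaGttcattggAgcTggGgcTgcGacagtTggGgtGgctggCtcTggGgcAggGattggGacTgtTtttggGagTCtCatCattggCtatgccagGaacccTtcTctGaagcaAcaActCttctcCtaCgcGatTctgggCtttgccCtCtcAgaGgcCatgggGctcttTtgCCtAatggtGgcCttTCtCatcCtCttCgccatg
Atp5g3: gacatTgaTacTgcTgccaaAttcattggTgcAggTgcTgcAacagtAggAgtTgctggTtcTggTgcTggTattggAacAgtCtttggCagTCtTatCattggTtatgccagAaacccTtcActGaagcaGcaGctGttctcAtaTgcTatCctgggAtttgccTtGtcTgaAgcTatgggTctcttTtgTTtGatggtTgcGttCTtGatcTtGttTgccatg

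All 75 residues were identical between each pair of the 3 genes, although 57 of the 225 bases differed and 52 of these differences lay at the third position of a codon. Atp5g1 and Atp5g2 shared 84.9% of the bases, with a longest common run of 20, Atp5g1 and Atp5g3 shared 180 of the 225, with a longest run of 11, and Atp5g2 and Atp5g3 shared 78.7%, with a longest run of 8. All of these runs were shorter than a sequenced read. The transcript of Atp5g2 was found in full, with 100% identity over all its 647 bases, at a pseudogene on chromosome 17 and on an unplaced piece of the assembly, and over 645 bases at a pseudogene on chromosome 7, so the counts of Atp5g2 are uncertain.

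Of the 42 genes with an annotated protein-coding transcript, 17 had a stretch elsewhere in the genome that was at least 95% identical over at least 100 bases, and 6 had one that was at least 99% identical. Atp5l, subunit g of the ATP synthase, had the most, with 11. One of these is Atp5l2, the remaining gene found by the symbol patterns, which is annotated as a pseudogene (chr11:97629374-97629764) and is 99.1% identical to Atp5l over 452 bases. Atp5l2 had between 2 and 12 counts per mouse against at least 2821 for Atp5l and did not pass the filter on low counts. The other 42 genes were tested.

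The levels within a complex were compared per length, as CPM per kilobase of the median annotated coding transcript. In complex II the catalytic flavoprotein Sdha had 155 ± 6.5 CPM per kilobase in the controls, followed by the iron-sulfur subunit Sdhb at 88.8 ± 3.5 and the membrane anchors Sdhd at 51.5 ± 1.7 and Sdhc at 35.5 ± 0.42. The order of these 4 genes was the same in all 11 mice, without overlap between neighbours. In complex III the hinge subunit Uqcrh was highest at 237 ± 9.1 CPM per kilobase and lay above Uqcrc1, a core subunit, in all mice. The Rieske iron-sulfur subunit Uqcrfs1 was lowest at 66.2 ± 4.1. The mice overlapped between neighbours from Uqcrc1 down to Uqcrb, so the order in between is not resolved.

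In complex IV, Cox4i1 had the highest level per length, 515 ± 26 CPM per kilobase in the controls, and 10 further subunits lay between 99.8 and 378. The 4 isoforms that are known mainly from other tissues were far below. Cox6a2, the heart and muscle form of subunit 6a, had 7.9 ± 1.7 CPM per kilobase, Cox6b2, the testis form of subunit 6b, had 3.21 ± 0.70, Cox7a1, the heart and muscle form of subunit 7a, had 3.18 ± 0.51, and Cox4i2, the lung form of subunit 4, had 1.93 ± 0.31. In complex V the catalytic subunit Atp5b was highest at 593 ± 25 CPM per kilobase, followed by its partner in the catalytic hexamer, Atp5a1, at 339 ± 13 and by the ring subunit gene Atp5g3 at 271 ± 12. These 3 did not overlap in any mouse. The other 11 tested subunits of complex V lay between 99.6 and 194 CPM per kilobase, with overlap between each pair of neighbours.

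**Figure D1:**
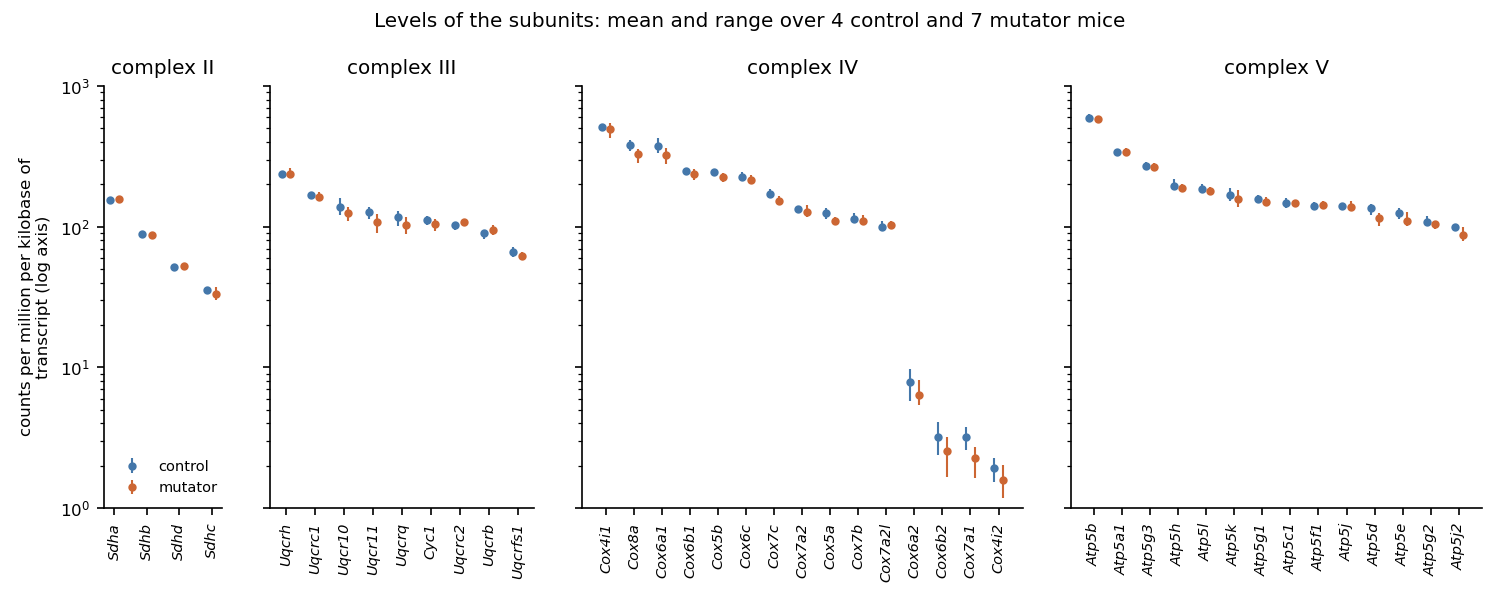
CPM per kilobase of transcript (log axis) of the 42 tested subunits in each complex, ordered by the control mean, with points for the mean and bars for the range over 4 control and 7 mutator mice. The main subunits lie between about 35.5 and 593 in the controls, and the 4 tissue forms of complex IV have control means of 7.90 or less.

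Between the groups, most of these mRNAs differed by little, and more of them lay lower than higher in the mutators. The log2 fold change of mutator over control was negative for 34 of the 42 tested subunits, with a median of -0.077, against a median of 0.0014 over all 17983 genes tested, of which 49.6% were negative. The standard errors of the single subunits had a median of 0.051. The lowest value was -0.48, for Cox7a1, and the highest 0.084, for Uqcrb. With edgeR's quasi-likelihood test and Benjamini-Hochberg adjustment over all genes, 1 of the 42 subunits had an adjusted p-value under 0.05, against 1.24% of all genes. At a nominal p below 0.05, 12 subunits were lower, against 8.58% of all genes, and 0 were higher, against 7.18% of all genes. The 4 controls lay wholly above the 7 mutators for 1 subunit, Cox5b, against 1.42% of all genes. Without control 246 the median was -0.048 with 29 subunits negative and 9 lower at a nominal p below 0.05, against 6.27% of all genes in that fit. Without mutator 248 it was -0.059 with 34 negative and 11 lower at that threshold, against 7.30% of all genes. In whole tissue, fewer cells of a type and less RNA per cell cannot be told apart.

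**Figure D2:**
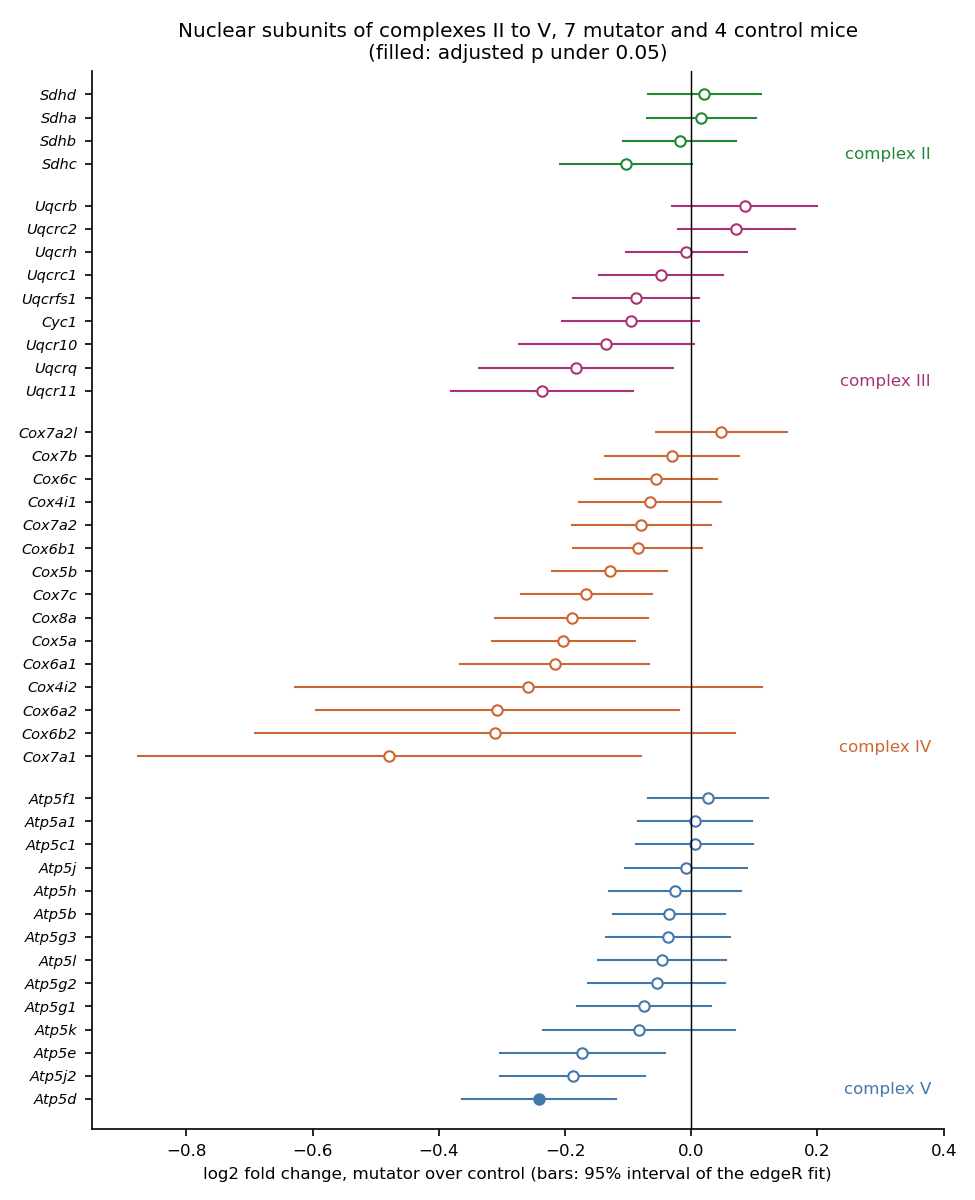
Log2 fold change of mutator over control mice (points) with the 95% interval of the edgeR fit (bars) for the 42 tested subunits, by complex and ordered by size, the filled point having an adjusted p-value under 0.05. Complex IV has 14 of 15 points left of 0, and Atp5d at -0.24 is the filled point.

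The complexes are given one by one. In complex II, 2 of the 4 subunits were negative and the median log2 fold change was -0.0013. In complex III, 7 of 9 were negative with a median of -0.087, and 2 were lower at a nominal p below 0.05. In complex IV, 14 of 15 were negative with a median of -0.17, and 7 were lower at that threshold. These 15 include the rare tissue forms Cox4i2, Cox6a2, Cox6b2 and Cox7a1, which lay between -0.48 and -0.26, all below that median. They held 2 of the 7, and their standard errors had a median of 0.18. In complex V, 11 of the 14 tested were negative with a median of -0.042, and 3 were lower at that threshold. Of all genes tested, 49.6% were negative and 8.58% were lower at that threshold. Without control 246 the medians of complexes II, III, IV and V were 0.020, -0.060, -0.14 and -0.0095, and without mutator 248 they were 0.0092, -0.067, -0.15 and -0.032. Without control 239 the median of complex III was -0.048, and without control 205 that of complex V was -0.063. Whether one complex differs from another was not tested, since its subunits are not replicates of it.

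In single mice, the 15 subunits of complex IV had a median deviation from the control mean, on the log2 scale, of -0.068 in control 205, 0.028 in control 237, -0.016 in control 239 and 0.11 in control 246. In the mutators it ran from -0.26 in mouse 248 to -0.058 in mouse 217, with a median of -0.14, and 6 of the 7 mutators lay below the lowest control. These medians count the 4 rare tissue forms like the other subunits. The summed level of complex IV was 1669 ± 76.7 CPM in the controls and 1547 ± 81.8 in the mutators. For complex V the controls lay between -0.051 and 0.085 and the mutators between -0.0997 and 0.052, with 3 of 7 mutators below all controls. Complex III had mutators between -0.17 and 0.021 and controls between -0.074 and 0.039. Complex II had mutators between -0.059 and 0.056 and controls between -0.012 and 0.050. Control 246 was the highest control in all 4 complexes, and among the mutators mouse 248 was lowest in all 4. Mouse 217 was the highest mutator in all 4 and lay above the control mean in complexes II, III and V.

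**Figure D3:**
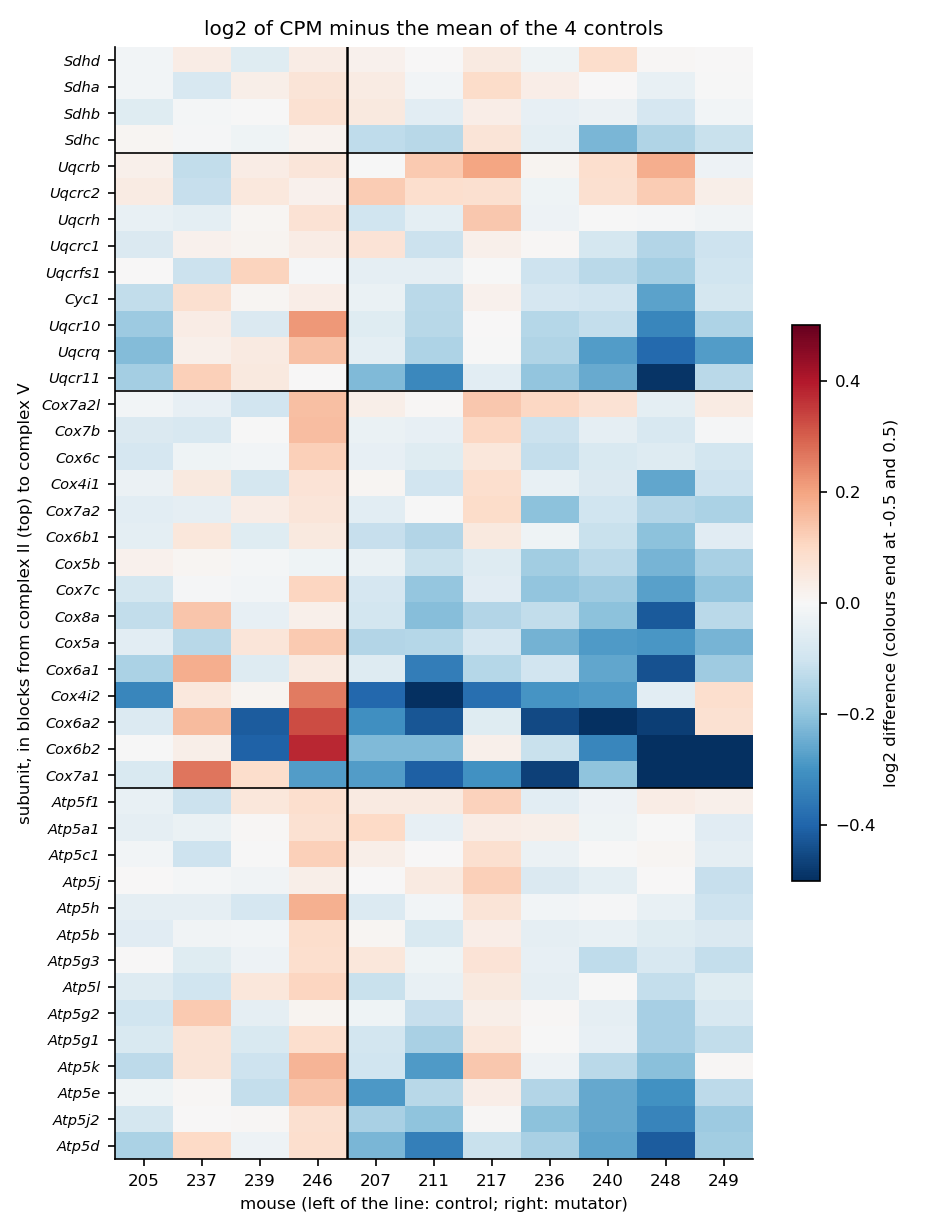
Log2 of CPM minus the mean of the 4 controls for each of the 42 tested subunits (lines, in blocks from complex II at the top to complex V) in each mouse (columns, with the controls left of the vertical line). Blue marks lower and red higher values, and the median of the complex IV block runs from -0.26 in mouse 248 to -0.058 in mouse 217.

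Complex II showed no subunit past the threshold. Sdhc, a membrane anchor that helps to bind ubiquinone, had 71.3, 70.3, 69.7 and 71.5 CPM in controls 205, 237, 239 and 246, and between 60.4 and 74.0 in the mutators, with a median of 64.8. The controls were tightly grouped and 6 of 7 mutators lay below all of them, while mouse 217 lay above all of them. Its log2 fold change was -0.10 (SE 0.051, adjusted p = 0.325 by edgeR). Sdhd, the other anchor, was at 66.2 ± 2.1 CPM in the controls and 67.1 ± 1.7 in the mutators, a log2 fold change of 0.021 with a 95% interval from -0.069 to 0.11. The catalytic Sdha was at 449 ± 19 and 454 ± 13 CPM and Sdhb at 101 ± 4.0 and 100.05 ± 3.3, with 95% intervals of the log2 fold change from -0.071 to 0.10 and from -0.11 to 0.071. No difference was detectable in these 3 mRNAs, and the intervals bound its size.

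In complex III the lowest p-values belonged to the small accessory subunits Uqcr11 and Uqcrq. The core subunits lay closer to the controls than they did, and so did other accessory subunits, such as Uqcrh at -0.0078 and Uqcrb at 0.084 on the log2 scale. Uqcr11, the smallest subunit of the complex, had 50.2, 61.4, 58.4 and 56.5 CPM in controls 205, 237, 239 and 246, and between 40.2 and 54.5 in the mutators, with a median of 48.5. Of the mutators, 5 lay below the lowest control and all 7 lay below the control mean. On the log2 scale, mutator over control was -0.24 (SE 0.069, adjusted p = 0.0946 by edgeR), and -0.13 with an offset for gene length and GC content. Uqcrq, another small subunit, had 50.7, 60.0, 60.7 and 65.2 CPM in the controls in the same order, and between 45.0 and 58.9 in the mutators, with a median of 52.9. It gave a log2 fold change of -0.18 (SE 0.073, adjusted p = 0.225 by edgeR), and the groups overlapped.

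The core subunit Uqcrc1 had 227 ± 7.8 CPM in the controls and 219.6 ± 12.5 in the mutators, a log2 fold change of -0.048 (SE 0.047, adjusted p = 0.667 by edgeR). Uqcrfs1, which carries the Rieske cluster that takes the first electron from ubiquinol, had 90.2 ± 5.6 and 84.9 ± 3.4 CPM (-0.087, SE 0.048, adjusted p = 0.389 by edgeR). Cyc1, the cytochrome c1 that hands electrons to cytochrome c, had 134 ± 8.0 and 126 ± 7.6 CPM (-0.096, SE 0.052, adjusted p = 0.383 by edgeR). Uqcrh, the most abundant per length, was at 112 ± 4.3 and 112 ± 5.7 CPM, a log2 fold change of -0.0078 with a 95% interval from -0.10 to 0.089. The remaining subunits, Uqcr10, Uqcrb and Uqcrc2, had log2 fold changes from -0.13 to 0.084 and nominal p-values of at least 0.0575. None of the 9 passed the adjusted threshold.

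Complex IV had the most subunits below the controls, among them the mRNAs of its matrix side. Cox5a and Cox5b encode the 2 nuclear subunits that face the matrix. Cox5a had 83.3, 78.5, 89.9 and 94.5 CPM in controls 205, 237, 239 and 246, and between 70.5 and 81.5 in the mutators, with a median of 73.6. Only mutator 217 overlapped with the controls, lying above control 237. The fitted log2 fold change was -0.20 (SE 0.054, adjusted p = 0.0682 by edgeR). Cox5b had 129.8, 129, 127 and 126 CPM in the controls, and between 109 and 125 in the mutators, with a median of 116. The groups did not overlap, although the lowest control, at 126 CPM, and the highest mutator, at 125 CPM, were close. This gave a log2 fold change of -0.13 (SE 0.044, adjusted p = 0.141 by edgeR), so that it did not pass the threshold over all genes. With the offset for gene length and GC content described below, it was -0.051 (adjusted p = 0.656 by edgeR).

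Cox7c, a small membrane subunit, had 78.5, 82.9, 82.5 and 89.8 CPM in the controls, and between 69.0 and 80.03 in the mutators, with a median of 72.8. Its log2 fold change was -0.17 (SE 0.050, adjusted p = 0.0996 by edgeR), with 5 of 7 mutators below all controls. Cox7c has 5 copies elsewhere of at least 95% identity, 1 of them identical over 234 bases inside Pitpna, so its counts are uncertain. Copies of at least 95% identity also exist for Cox5b, Uqcr11, Uqcrq and Atp5j2. Cox4i1, the nuclear subunit that binds ATP and the most abundant per length in the complex, had 349 ± 17.5 CPM in the controls and 334 ± 24.4 in the mutators, a log2 fold change of -0.065 (SE 0.054, adjusted p = 0.596 by edgeR). Cox8a, with a log2 fold change of -0.19 (SE 0.058, adjusted p = 0.106 by edgeR), had 6 of 7 mutators below all controls. It, Cox7b, Cox6c, Atp5e and Atp5c1 were named after their values were seen. The subunits Cox7b and Cox6c had log2 fold changes of -0.030 and -0.056 with nominal p-values of at least 0.238.

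In complex V a membrane subunit and 2 of the 3 subunits of the central stalk lay lowest, and the catalytic hexamer and the ring lay near the controls. Atp5d (ENSMUSG00000003072, chr10:79601377-79608563 of mm9, plus strand) encodes subunit delta of the central stalk, which turns inside the catalytic head. It had 113, 135, 124 and 134 CPM in controls 205, 237, 239 and 246, and between 94.5 and 117 in the mutators, with a median of 108. Of the mutators, 6 lay below the lowest control, control 205, and all 7 lay below the control mean. On the log2 scale, mutator over control was -0.24 (SE 0.059, adjusted p = 0.0462 by edgeR), a decrease to 0.846 of the control level, and Atp5d was the subunit whose mRNA fell past the threshold. That call was lost in 13 of 21 alternatives, where the adjusted p-value ranged up to 0.237 without the WT/D257A mouse 237. The fit without this mouse is counted there both as WT/WT controls only and as a mouse left out. With an offset for gene length and GC content the log2 fold change was -0.14 (edgeR adjusted p = 0.0670).

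Atp5e, subunit epsilon of the same stalk, had 52.3 ± 3.9 CPM in the controls and 46.4 ± 3.9 in the mutators, a log2 fold change of -0.17 (SE 0.063, adjusted p = 0.176 by edgeR). Atp5c1, the gamma subunit that forms the shaft of the stalk, had a log2 fold change of 0.0055 (SE 0.045, adjusted p = 0.971 by edgeR), so the 3 stalk mRNAs did not lie on the same side of 0. Atp5j2, subunit f in the membrane, had 70.1, 74.6, 74.6 and 78.7 CPM in the controls and between 59.2 and 74.7 in the mutators, with a median of 64.8. Mouse 217 was within the range of the controls and the other 6 mutators were below it. The fitted log2 fold change was -0.19 (SE 0.055, adjusted p = 0.0946 by edgeR). The hexamer subunits Atp5a1, at 838 ± 32 and 841 ± 31 CPM, and Atp5b, at 1137 ± 48 and 1109 ± 32 CPM, had log2 fold changes of 0.0057 and -0.036 with 95% intervals from -0.085 to 0.096 and from -0.12 to 0.053. The peripheral stalk and remaining membrane subunits Atp5f1, Atp5h, Atp5j, Atp5k and Atp5l had log2 fold changes between -0.083 and 0.027 and nominal p-values of at least 0.266.

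The isoforms of a subunit were compared as ratios of counts within each mouse, which do not depend on library size. Over the 8 ratios, 2-sided exact permutation tests over all 330 splits of 7 and 4 mice gave 0 with a p-value under 0.05 after Benjamini-Hochberg adjustment over the ratios, and 1 with a nominal p below 0.05. That was Cox7a1, the heart and muscle form, against Cox7a2, the form of most other tissues. Per 1000 counts of Cox7a2 there were 11.2, 14.04, 11.7 and 8.94 counts of Cox7a1 in controls 205, 237, 239 and 246, and between 6.51 and 10.6 in the mutators, with a median of 8.60. The groups overlapped, since control 246 lay below 3 of the mutators. The mean log2 ratio differed by -0.40, mutator minus control (exact permutation test p = 0.0303, adjusted p = 0.242). As single genes, Cox7a1 had 1.16 ± 0.19 CPM in the controls and 0.831 ± 0.152 in the mutators, with at least 22 counts per mouse, a log2 fold change of -0.48 (SE 0.19, adjusted p = 0.221 by edgeR), and Cox7a2 had 101 ± 4.0 and 96.0 ± 6.95 CPM (-0.079, SE 0.053, adjusted p = 0.495 by edgeR).

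The 3 other tissue forms also had negative log2 fold changes that did not pass the adjusted threshold. Cox6a2 was at 5.2 ± 1.1 CPM in the controls and 4.17 ± 0.70 in the mutators (-0.31, SE 0.14, adjusted p = 0.281 by edgeR), while its main form Cox6a1 was at 216 ± 22 and 185 ± 17 CPM (-0.22, SE 0.071, adjusted p = 0.138 by edgeR) and had a log2 fold change of -0.059 with the length and GC offset. The ratio of Cox6a2 to Cox6a1 was 24.1 ± 4.3 per 1000 in the controls and 22.5 ± 3.4 in the mutators (exact permutation test p = 0.527). Cox6b2 was at 1.77 ± 0.38 and 1.4 ± 0.29 CPM (-0.31, SE 0.18, adjusted p = 0.425 by edgeR) and Cox6b1 at 126 ± 5.5 and 119 ± 7.05 CPM (-0.085, SE 0.049, adjusted p = 0.417 by edgeR), a ratio of 13.96 ± 2.6 against 11.8 ± 2.1 per 1000 (exact permutation test p = 0.182). Cox4i2 was at 1.41 ± 0.23 and 1.16 ± 0.20 CPM (-0.26, SE 0.18, adjusted p = 0.507 by edgeR), a ratio to Cox4i1 of 4.03 ± 0.56 against 3.51 ± 0.78 per 1000 (exact permutation test p = 0.261). The intervals of these rare mRNAs are wide, and for Cox6b2 the 95% interval of the log2 fold change ran from -0.69 to 0.069.

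Markers of muscle were set beside the 2 muscle forms. Of a list of 5 skeletal muscle mRNAs, 4 were tested, and they summed to between 7.23 and 9.38 CPM in the controls and between 6.23 and 7.48 in the mutators. Of these 4, 3 were negative and 1 was lower at a nominal p below 0.05, against 8.58% of all genes. Their median log2 fold change was -0.30. Acta1 made up most of the sum, at 5.62 to 8.00 CPM against 4.70 to 5.84, while Ckm and Mb, which are defining for muscle, reached at most 0.276 and 0.856 CPM in any mouse. Markers of pericytes and smooth muscle summed to between 205 and 222 CPM in the controls and between 204 and 242 in the mutators. Of these 8, 4 were positive and 4 were negative, among the latter the smooth muscle markers Acta2 (-0.53), Tagln (-0.19) and Myh11 (-0.035). At a nominal p below 0.05, 1 was lower and 2 were higher, against 8.58% and 7.18% of all genes. In edgeR's test 1 of 8 had an adjusted p-value under 0.05, in the direction of higher, against 1.24% of all genes in either direction. The part of these cells in the isoform values was not tested.

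Cox7a2l, a relative of Cox7a2, had the highest log2 fold change in complex IV and the only positive one of its 15 mRNAs. It had 111 ± 8.4 CPM in the controls and 115 ± 4.9 in the mutators, a log2 fold change of 0.048 (SE 0.050, adjusted p = 0.687 by edgeR). Per 1000 counts of Cox7a2 there were 1095 ± 71.3 counts of Cox7a2l in the controls and 1199 ± 88.7 in the mutators, with 4 of 7 mutators above all controls (exact permutation test p = 0.0727, adjusted p = 0.291). Of the 3 ring genes, Atp5g3 gave 52.1% ± 1.8 of the counts in the controls and 52.6% ± 1.4 in the mutators, Atp5g1 gave 29.1% ± 0.83 and 28.7% ± 1.0, and Atp5g2 gave 18.7% ± 1.1 and 18.7% ± 0.48. Their 3 ratios had exact permutation p-values of at least 0.485. As single genes Atp5g1 was at 109 ± 6.6 and 104 ± 6.0 CPM, Atp5g2 at 70.2 ± 4.9 and 67.5 ± 3.2 CPM and Atp5g3 at 195 ± 8.4 and 190.1 ± 10.4 CPM, with edgeR adjusted p-values of 0.506, 0.649 and 0.758.

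**Figure D4:**
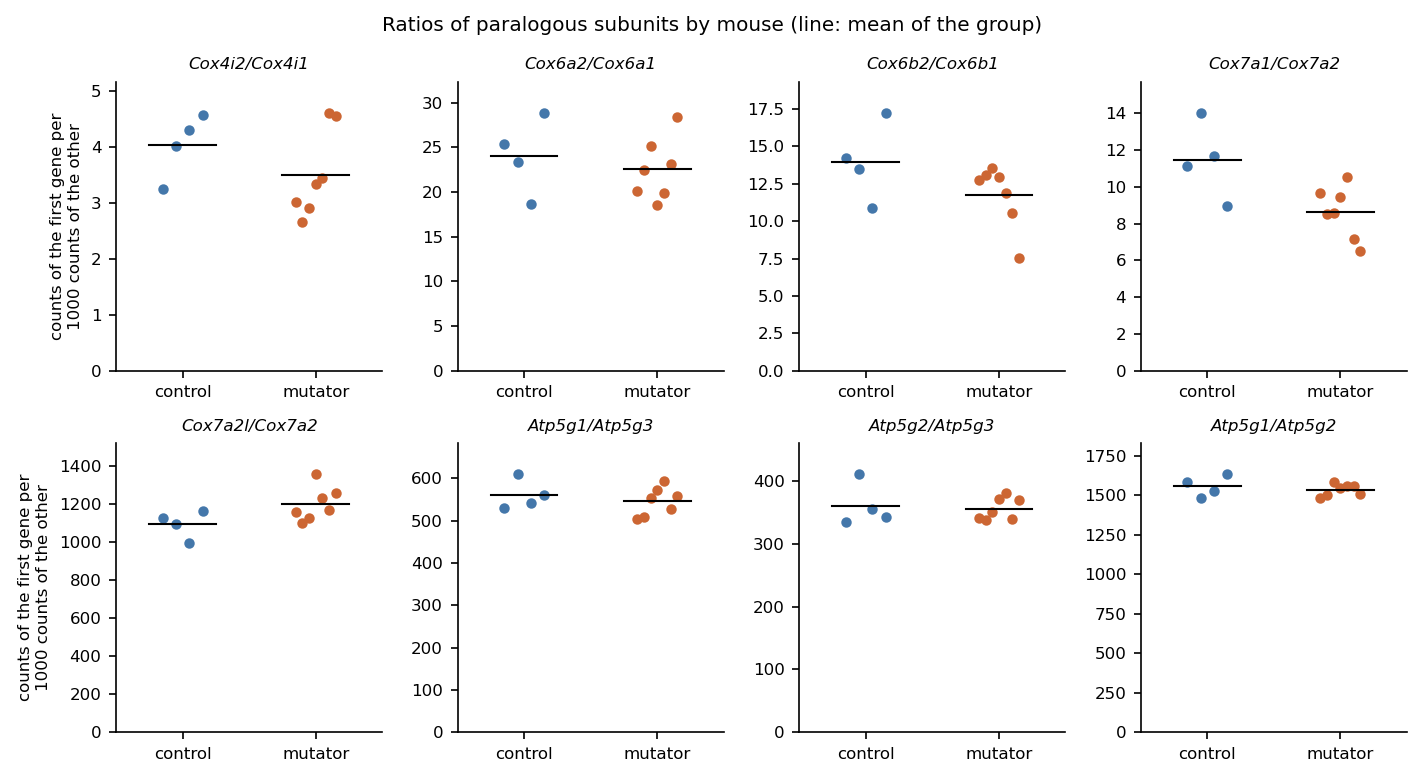
Counts of the first named gene per 1000 counts of the other in each of the 4 control and 7 mutator mice, with a line at the mean of the group and each axis starting at 0. The groups overlap in all 8 panels, and the panel of Cox7a1 against Cox7a2 has means of 11.5 in the controls and 8.64 in the mutators.

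The GC content and length of the mRNAs were set beside these values. Across the 42 subunits, Pearson's r between the log2 fold change and the GC content of the annotated exons was -0.54 and Spearman's rho was -0.61, as a description of genes that share the same 11 libraries. Of 12 subunits with a GC content of at least 55%, all 12 were negative, with a median of -0.11. The median of the 3955 tested genes in that class was -0.081, and 75.8% of them were negative. Of 20 subunits under 50% GC, 14 were negative with a median of -0.033, where the 8583 genes of that class had a median of 0.044 and 33.0% negative. In the class between, 8 of 10 subunits were negative with a median of -0.18, and the 4650 genes of that class had a median of -0.023 and 58.2% negative. The 10 subunits include the rare tissue forms Cox6a2, Cox6b2 and Cox7a1. These classes were chosen after the values were seen. With length and GC content entered as an offset in the fit, 31 of the 42 subunits were negative, 10 were lower at a nominal p below 0.05 against 6.44% of all genes, and 0 passed the adjusted threshold. The median over the subunits was then -0.065, that of complex II 0.013, that of complex III -0.0086, that of complex IV -0.078 and that of complex V -0.042. Among the subunits given singly above, the offset left Cox7c at -0.18, Cox5a at -0.17, Uqcrq at -0.17 and Atp5j2 at -0.17. It brought Atp5d to -0.14, Uqcr11 to -0.13, Cox6a1 to -0.059 and Cox5b to -0.051. Values with the offset are not given here for Cox8a and Atp5e.

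**Figure D5:**
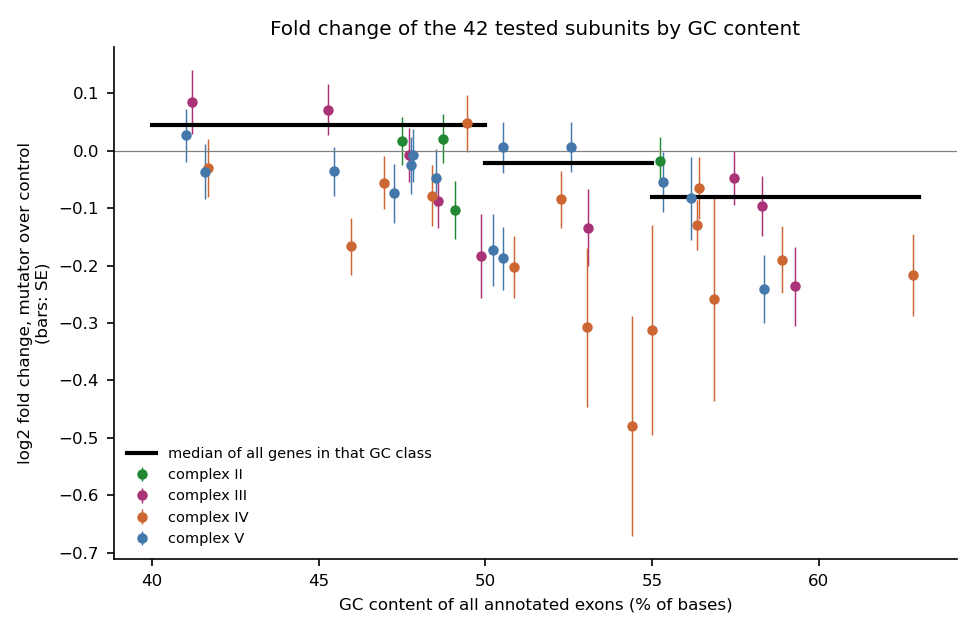
Log2 fold change of mutator over control (points, bars for the standard error) of the 42 tested subunits against the GC content of their annotated exons in %, coloured by complex, with black lines at the median of all tested genes in 3 classes of GC content. The lines step down from 0.044 to -0.081, and the 10 subunits between 50% and 55% have a median of -0.18 against -0.023 for the genes of that class. These 10 include the rare tissue forms Cox6a2, Cox6b2 and Cox7a1.

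The shift with GC content differed between mice of one group. For the genes of at least 55% GC, the median deviation from the control mean was -0.072 in control 205, 0.088 in control 237, -0.018 in control 239 and 0.0081 in control 246, and it ran from -0.18 in mutator 248 to -0.016 in mutator 236. Mutators 248 and 211, at -0.18 and -0.14, lay below all controls by this measure, and so did mouse 240 at -0.081 and mouse 217 at -0.074. The 12 subunits of this class had medians of -0.12, 0.074, -0.018 and 0.041 in the controls in the same order and from -0.25 in mouse 248 to -0.015 in mouse 217 in the mutators. By transcript length, 27 of the 28 subunits with a median transcript under 1000 bases were negative, with a median of -0.13, and 7 of the 14 longer ones were, with a median of -0.0065. The 1392 tested genes with under 1000 bases of annotated exons had a median of -0.028 with 54.6% negative. That measure of length is not the one used for the subunits, so the classes are not alike. The standard errors of these genes had a median of 0.25, against 0.055 for the 28 short subunits.

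Nuclear respiratory genes are known to be driven together by a few transcription factors, among them NRF1, the ETS family member GABP and YY1. The promoters of 31 of the 43 genes were found in RefSeq's table (GRCm38.p6), each from 250 bases before to 50 bases after a start, and both strands were searched for 3 motifs: for NRF1, GCGC followed by A, any base and GCGC again, for ETS factors CCGGAAGT, and for YY1 AANATGGCG. No match of 1 motif overlapped one of another. The NRF1 motif was found at 9 of the 31 (29.0%) and at 5.19% of 27025 genes, the ETS motif at 4 (12.9%) and at 4.31%, and the YY1 motif at 3 (9.68%) and at 2.76%. The 15 genes with any of them (48.4% against 11.2% of all) had a median log2 fold change of -0.037, and the 16 without had one of -0.11. Promoters of 3 of the subunits that lay lowest are shown, 1 with the NRF1 motif, 1 with the ETS motif and 1 with none, each as the 250 bases before a start in the direction of transcription, with matches in capitals. They lie at chr5:115348959-115349208 (minus strand) for Cox6a1, chr10:80406822-80407071 (minus strand) for Uqcr11 and chr10:80142065-80142314 (plus strand) for the more downstream of the 2 starts listed for Atp5d.
Cox6a1: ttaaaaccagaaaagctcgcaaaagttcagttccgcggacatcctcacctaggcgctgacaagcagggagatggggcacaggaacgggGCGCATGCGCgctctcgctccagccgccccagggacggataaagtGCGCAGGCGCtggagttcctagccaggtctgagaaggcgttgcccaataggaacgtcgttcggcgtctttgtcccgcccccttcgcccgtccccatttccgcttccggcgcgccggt
Uqcr11: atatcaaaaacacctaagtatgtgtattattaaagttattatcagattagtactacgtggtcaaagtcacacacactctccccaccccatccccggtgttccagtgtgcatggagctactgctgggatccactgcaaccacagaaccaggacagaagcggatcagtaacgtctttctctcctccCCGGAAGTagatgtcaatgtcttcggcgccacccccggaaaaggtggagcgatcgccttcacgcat
Atp5d: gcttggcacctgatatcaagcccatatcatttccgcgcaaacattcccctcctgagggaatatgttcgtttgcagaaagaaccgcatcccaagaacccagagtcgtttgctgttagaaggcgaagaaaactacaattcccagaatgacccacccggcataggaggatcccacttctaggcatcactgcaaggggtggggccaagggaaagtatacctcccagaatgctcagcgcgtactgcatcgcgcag

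Cox6a1 holds 2 matches of the NRF1 motif, Uqcr11 holds 1 of the ETS motif and Atp5d holds none of the 3 in these windows. The 9 genes with the NRF1 motif had log2 fold changes from -0.22, for Cox6a1, to 0.021, for Sdhd, and the 4 with the ETS motif from -0.24, for Uqcr11, to -0.0078, for Uqcrh. Of 10 regulators of nuclear respiratory genes, the mRNAs of 7 had positive log2 fold changes, with a median of 0.081 and 0 of 10 past the adjusted threshold in edgeR's test. At a nominal p below 0.05, 1 was lower and 2 were higher, against 8.58% and 7.18% of all genes. These were Gabpa (0.17, SE 0.067, adjusted p = 0.203 by edgeR) and its partner Gabpb1 (0.13, SE 0.054, adjusted p = 0.248 by edgeR), the subunits of GABP, and Esrra (-0.12, SE 0.049, adjusted p = 0.235 by edgeR), a nuclear receptor. Nrf1 itself had -0.064 (SE 0.063, adjusted p = 0.667 by edgeR).

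Other genes of the same machinery are given for comparison. Of the 37 nuclear subunits of complex I, 34 were negative with a median log2 fold change of -0.080, 8 were lower and 0 higher at a nominal p below 0.05, and 0 passed the adjusted threshold. Over all genes, 49.6% were negative, and 8.58% were lower and 7.18% higher at that nominal threshold. Of 10 subunits and partners that the symbol patterns miss, such as Atp5o and Ndufa4, which is also among the 37 of complex I, 8 were tested, 7 were negative, 0 had a nominal p below 0.05 and the median was -0.047. Of the 6 subunits of complexes III to V that mitochondrial DNA encodes, 5 were tested, 4 were positive and the median was 0.15. None of them passed the adjusted threshold in edgeR's test and 3 had a nominal p below 0.05. Of these, mt-Cytb was lower (-0.19, SE 0.064) and mt-Co1 (0.15, SE 0.062) and mt-Co2 were higher. The positive mt-Co3 and mt-Atp6 reached at most 1.54 and 5.39 CPM in any mouse. In contrast, mt-Co1 and mt-Cytb had at least 17505 and 6445 CPM. For mt-Co2 the log2 fold change of 4.199 (standard error 1.67) rests on between 0.144 and 0.509 CPM in the controls and between 0.565 and 23.9 in the mutators. The 81 tested mRNAs of the cytosolic ribosome, which are also short and abundant, had a median of -0.0084 with 48 negative, 1 lower and 1 higher at a nominal p below 0.05. In single mice, the ribosomal mRNAs had a median deviation of 0.11 in control 246, 0.12 in mutator 217 and -0.098 in mutator 248, the same 3 mice that lay outermost for the subunits.

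Cell type markers were set beside these values. Of 4 oligodendrocyte markers, 3 were negative and 2 were lower at a nominal p below 0.05, with a median of -0.21 and summed levels of 4112 to 4762 CPM in the controls and 4079 to 5739 in the mutators. Of 4 microglial markers, 4 were negative and 3 were lower at that threshold, with a median of -0.19 and sums of 159.9 to 204 against 151 to 173 CPM. The 6 neuronal markers had a median of -0.014, with sums of 5365 to 5724 against 5223 to 5604 CPM. The 4 astrocyte markers had a median of -0.11, the 4 endothelial markers one of 0.064, the 4 of the choroid plexus one of 0.0097 and the 4 of blood one of 0.74. None of the markers in these 7 lists passed the adjusted threshold in edgeR's test. At a nominal p below 0.05, the neuronal, astrocyte and choroid plexus lists each held 1 lower and 1 higher, the endothelial list held 2 higher and the blood list held 0. Over all genes, 8.58% were lower and 7.18% were higher at that threshold. The neuronal marker Rbfox3 was also listed, but it was not among the genes counted under that symbol and has no value here. The part of these cell types in the values of the subunits was not tested.

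Exon usage was tested in the 10 mice with exon bin counts, 7 mutator and 3 WT/WT, where a bin is a piece of a gene between annotated exon borders and its usage is relative to the other bins of the gene. Over all genes, 0.0237% of 206930 bins had an adjusted p-value under 0.05 with edgeR's diffSpliceDGE. Of the 388 bins tested in the 42 subunits, 0 did, and limma's diffSplice also gave 0. At a nominal p below 0.05 there were 6 (1.55%, against 1.90% of all bins), in Cyc1, Uqcrfs1, Atp5f1, Atp5d and Cox6c. The lowest p-value, 0.00200, belonged to the first bin of Cyc1, with a log2 fold change in usage of -0.32 (edgeR adjusted p = 1.00). These bins were named after their values were seen.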

How the data were processed

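Poly(A)+ RNA of 11 cerebra was sequenced, and the gene and exon bin counts used here were deposited by the authors as whole read counts with no normalization. Per the submitters' processing notes and methods, reads were base-called with CASAVA 1.7.1, aligned to mm9 with TopHat2 2.0.6 and Bowtie2 2.0.2.0 and counted with HTSeq 0.5.3p9. The authors' own comparison tables, made with DESeq 1.14.0 and an exon test, hold fold changes and p-values and were not used, nor were protein ratios. The deposited read totals served only for the aligned reads.

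Gene counts were filtered (filterByExpr), TMM-scaled and tested with the robust quasi-likelihood test of edgeR 4.0.16 (limma 3.58.1, R 4.3.3), 7 mutator against 4 control mice, with Benjamini-Hochberg adjustment over 17983 genes at 0.05. Log2 CPM used a prior count of 2. Isoform ratios, each count plus 0.5, were tested by 2-sided exact permutation over 330 splits, whose smallest p is 0.00606. Exon bins were tested with diffSpliceDGE, and replaced the authors' exon test. Levels per kilobase used the median annotated coding transcript of mm9, from an annotation later than the authors'. Alternatives were DESeq2 1.42.0, RLE and upper-quartile scaling, other filters, a fit without the WT/D257A mouse, scaling without mitochondrial genes, total count as a covariate, a length and GC offset (95.6% of tested genes had both), 1 surrogate variable (sva 3.50.0), medians, limma's diffSplice and each mouse left out. In simulated counts, the gene fit recovered 85 of 100 genes changed 2-fold and 76 of 100 changed 1.5-fold, with 13 false calls. The exon fit recovered 199 of 200 changed bins, with 51 false calls. Smaller changes, such as those of the subunits, were not simulated.

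Every subunit is accounted for. Values were printed for the 2 subunits of lowest p and the most abundant one of each complex, the isoforms, the catalytic and core subunits, those past the threshold and those below the filter. Members and lists were chosen with earlier results of these data known. The labels do not say whether the mice came from separate litters, so p-values measure the spread between these mice.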

Additional observations from a re-analysis of the deposited data

Results flagged for a closer look

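The gap between the outermost mouse and its nearest neighbour, as a share of the range of its group, was computed for 110 groups of 4 or 7 mice, and 7 exceeded Dixon's 95% critical value (0.829 for 4 mice and 0.568 for 7). Chance gives about 1 in 20, or 5.5 of 110.

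Among the mutators, mouse 217 was highest for Uqcrh, at 123 CPM against 105 to 112 in the other 6 (gap share 0.593). The same mouse was highest for Cox6c, at 144 CPM against 128 to 135 (0.583), and for the median of complex V, at 0.052 against -0.0997 to -0.042 on the log2 scale (0.617). Mouse 248 was lowest for Cox8a, at 153 CPM against 177 to 193 (0.597). Among the controls, mouse 246 was highest for Atp5h, at 144 CPM against 120.0 to 123 (0.858), and for the median of complex II, at 0.050 against -0.012 to -0.0096 (0.959). Control 205 was lowest for the median of complex III, at -0.074 against 0.022 to 0.039 (0.8495).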

How the results depend on the processing

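In the 21 alternatives of the gene fit, between 29 and 38 subunits were negative, 9 to 17 were lower and 0 higher at a nominal p below 0.05, and the median over the subunits ran from -0.099 to -0.048. Of all genes in these fits, 5.4% to 9.9% were lower at that threshold. The fit with WT/WT controls only is the same as the one without mouse 237 and is counted under both names. The number past the adjusted threshold was 2 with DESeq2, against 2.21% of all genes, and 2 without a filter on low counts, against 1.23% (Cox5a and Atp5d in both). It was 0 with upper-quartile scaling, with a mean count of at least 10, with WT/WT controls only, with the length and GC offset and with 1 surrogate variable. In those fits 0.273% to 1.14% of all genes passed. Leaving out each mouse in turn gave from 0 to 4. There were 4 (Uqcr11, Cox5a, Atp5d and Atp5j2) without mutator 217, against 1.76% of all genes, and 2 (Uqcr11 and Atp5d) without control 205, against 2.27%. There were 0 without mice 237, 239, 246, 207, 211, 236, 240 or 248, against 0.273% to 1.53% of all genes. Over all genes the calls ran from 50 of 18304 with WT/WT controls only to 622 of 28093 with DESeq2.

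The median of complex II lay on either side of 0, from -0.015 to 0.020 over the alternatives, and that of complex V was -0.023 with 1 surrogate variable. With the length and GC offset the medians of complexes III and IV were -0.0086 and -0.078, and the log2 fold changes crossed 0 for Atp5g2 (0.015), Cox4i1 (0.015), Cyc1 (0.0065), Sdha (-0.0019), Sdhb (0.0425) and Uqcrc1 (0.042). With WT/WT controls only it did so for Atp5a1 (-0.0048) and Sdha (-0.0085), and with 1 surrogate variable for Uqcrh (0.012). With each mouse left out, Atp5a1 ran from -0.011 to 0.032, Sdha from -0.0085 to 0.037, Sdhb from -0.040 to 0.0067 and Uqcrh from -0.032 to 0.017. These had adjusted p-values of at least 0.637 in edgeR's test where they crossed 0, and the cause was not tested.

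Of the isoform ratios, Atp5g1 to Atp5g3 was 0.0095 and Atp5g2 to Atp5g3 was 0.0070 as differences of medians, and 0.0037 and 0.047 with WT/WT controls only. With each mouse left out they ran from -0.064 to 0.0037 and from -0.052 to 0.047, Cox6a2 to Cox6a1 from -0.21 to 0.0047 and Atp5g1 to Atp5g2 from -0.043 to 0.0030. No exon bin of a subunit passed the adjusted threshold in any alternative run. No paired analysis was possible because the replicate numbers were given in accession order and do not link mice across groups. Rare isoforms, with as few as 22 counts per mouse, are limited by depth.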
